A study of Mus musculus with 6 samples.

Results

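The genes described here encode the potassium, sodium and calcium channels of the voltage-gated superfamily, the inward rectifier and two-pore-domain potassium channels, the TRP channels and the HCN channels, together with the accessory subunits that assemble with them. They were chosen by name, as protein-coding genes whose symbol begins with Kcn, Scn, Cacn, Trpc, Trpm, Trpv or Hcn in the form used for these families, plus Trpa1, and this gave 142 of the 28262 genes in the count table. RNA-seq counts were compared between Pa1F/F Sertoli cells, the control (3 libraries), and Amh-pa1-/- Sertoli cells (3 libraries). All 6 libraries came from primary Sertoli cells purified from the testes of untreated C57BL/6 mice at 20 days of age and kept in culture at 34 °C. Both genotypes carry the floxed Pa1 alleles, and in Amh-pa1-/- mice these alleles are deleted by a Cre recombinase under the Amh promoter, which is active in Sertoli cells, so that other cell types of the testis keep them. Pa1 encodes a partner protein of histone methyltransferase complexes, and the comparison addresses which transcripts change when Sertoli cells lack it. Reads on Pa1 were not analysed here, and the genotype of a library therefore rests on its label. The study's methods call the libraries biological replicates and describe its experiments in general as independently repeated, without naming the animals or cell preparation behind each library, and the p-values measure the spread between these libraries.

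Sertoli cells are the somatic cells of the seminiferous epithelium that nurse the germ cells and form the blood-testis barrier. They secrete the potassium-rich fluid of the tubule lumen, and their membrane potential and calcium entry respond to follicle-stimulating hormone and to androgen. Potassium channels set the resting potential and carry potassium across the epithelium. Voltage-gated calcium channels and TRP channels admit calcium, and sodium channels carry the fast inward current that is best known from neurons and muscle.

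Total counts on genes lay between 14051353 and 16231443 in the Pa1F/F libraries and between 13203757 and 15247587 in the Amh-pa1-/- libraries, so that 3 counts, taken here as the floor, corresponded to between 0.185 and 0.227 CPM (counts scaled to the depth of the library). The replicates were unevenly spaced. A chi-square comparison of the counts, divided by its degrees of freedom, gave 2.23 for Pa1F/F replicates 1 and 3 and 1.68 for Amh-pa1-/- replicates 1 and 2, whereas the other pairs within a genotype gave between 18.5 and 30.5. Whether the libraries of such a close pair share an RNA or a culture is not given. They may not be independent, in which case 3 libraries per genotype overstate the replication behind the standard errors and p-values. The marker counts that follow use an adjusted p-value under 0.05 and a change of at least 2-fold, which 6.56% of all tested genes met as lower and 5.44% as higher in Amh-pa1-/- cells. Of 18 Sertoli cell markers, 17 were tested, 3 were lower (Inha, Defb19 and Gdnf, 17.6%) and none was higher. Their summed level was 20796 to 21905 CPM in Pa1F/F and 13168 to 17401 CPM in Amh-pa1-/- libraries, and most of it was Clu, which fell by less than 2-fold, and Ctsl. Without a limit on the fold, 6 of the 17 were lower (Gata4, Clu and Aard besides these 3) and 2 were higher (Dmrt1 and Cst12), and the other 9 did not pass the test. Markers of other cells of the testis moved with the genotype. The summed level of 14 macrophage markers was 155 to 168 CPM in Pa1F/F and 106 to 115 CPM in Amh-pa1-/- libraries, with 8 of 12 tested markers lower and 1 higher, while Mrc1, the most counted of them, did not pass the test. That of 8 Leydig cell markers was 838 to 933 CPM as compared with 177 to 333 CPM, with 3 of 4 tested markers lower. Most of the Leydig sum was Star (means of 7911 and 2628 normalized counts) and Cyp11a1 (4386 and 364). Insl3, Cyp17a1, Hsd3b6 and Lhcgr were not tested and had means of at most 9.86 in either genotype. For 8 peritubular myoid cell markers the sums were 489 to 619 CPM and 1664 to 2031 CPM (2 of 7 tested higher), and for 6 mesothelial cell markers 11.9 to 16.5 CPM and 33.9 to 40.3 CPM (3 of 6 tested higher). Spermatogonial markers summed to 193 to 222 CPM and 104 to 200 CPM, nearly all of them Uchl1, which did not pass the test (the other 3 tested, Gfra1, Kit and Ddx4, were lower and had few counts), endothelial markers to 117 to 123 CPM and 64.2 to 101 CPM, pericyte markers to 375 to 436 CPM and 275 to 456 CPM, and neuronal or glial markers, nearly all of them Tubb3, to 475 to 552 CPM and 433 to 607 CPM. Spermatocyte markers stayed between 1.13 and 4.43 CPM and spermatid markers between 6.36 and 7.70 CPM in all 6 libraries. Nearly all of the spermatid sum was Spaca1, with means of 104 and 94.7 normalized counts in Pa1F/F and Amh-pa1-/- cells. No marker with a row in the table was at 0 in every library. In bulk RNA, fewer cells of a type and less RNA per cell cannot be told apart, and the part that these other cells had in the channel counts was not tested.

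Most channel genes were expressed at low levels. After the filter on low counts 74 of the 142 channel genes (52.1%) were tested, as compared with 74.7% of the 17451 protein-coding genes. Per kilobase of exon, the median tested channel gene had 0.417 CPM per kilobase, against 4.01 for all tested genes with an exon length, and 8 of the 74 lay above that median. The highest was Trpm7, a channel fused to a kinase that conducts magnesium, zinc and calcium, at 18.1 CPM per kilobase over the 6 libraries. Cacnb3, a cytoplasmic beta subunit of calcium channels, followed with 12.6 CPM per kilobase, and Kcnh2, the potassium channel of the cardiac rapid delayed rectifier current, with 10.5 CPM per kilobase. The next channel subunits were Kcnab3, Kcna6, Kcnk13 and Cacna2d1, between 5.46 and 8.16 CPM per kilobase. Trpc4ap, at 16.3 CPM per kilobase, and Trpc5os match the name pattern but are not channel subunits.

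Between the genotypes, 14 of the 74 tested channel genes had lower and 7 had higher counts in Amh-pa1-/- cells, at an adjusted p-value under 0.05 and a change of at least 2-fold (quasi-likelihood test of edgeR, Benjamini-Hochberg adjustment over the 14919 tested genes). That was 28.4% of the tested channel genes, as compared with 12.0% of all tested genes. The lower genes made up 18.9% against 6.56% of all tested genes, and the higher genes 9.46% against 5.44%. Without a limit on the fold, 22 of the 74 genes (29.7%) were lower against 17.1% of all tested genes, or 20 of 72 (27.8%) without Trpc4ap and Trpc5os, and 11 (14.9%) were higher against 18.2%. The median log2 fold change of the tested channel genes was -0.12, and that of all tested genes was 0.00. In the single Amh-pa1-/- replicates 1, 2 and 3 the median log2 difference of the channel genes from the Pa1F/F mean, with 0.5 added to the normalized counts, was -0.34, -0.50 and 0.02, so that -0.12 was less than the spread between them (SD 0.27). A gene with few counts in 1 genotype could pass the filter through the other genotype alone, so that these shares describe the genes that passed and not all 142.

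The number of genes depended on how the close replicate pairs and Amh-pa1-/- replicate 3 were treated. With the counts of each close pair summed, which leaves 2 libraries per genotype, 5 genes were lower (Kcnk3, Kcnma1, Kcnk13, Cacna1c and Cacng5) and 4 were higher (Scn8a, Scn2a, Kcnq5 and Trpm3), or 11.5% of 78 channel genes as compared with 5.53% of all genes tested that way. The other 12 then missed the threshold, with adjusted p-values of up to 0.195. Without Amh-pa1-/- replicate 3, all 21 genes were still past the threshold and 23 genes were lower and 9 higher in total, or 41.6% of 77 channel genes as compared with 13.5% of all genes tested in that setting. The Amh-pa1-/- libraries left are the close pair, at 1.68 in the chi-square comparison, so that less spread within Amh-pa1-/- enters these p-values. The median log2 fold change over the tested channel genes was then -0.56, and without Amh-pa1-/- replicate 2 it was 0.00270.

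**Figure D1:**
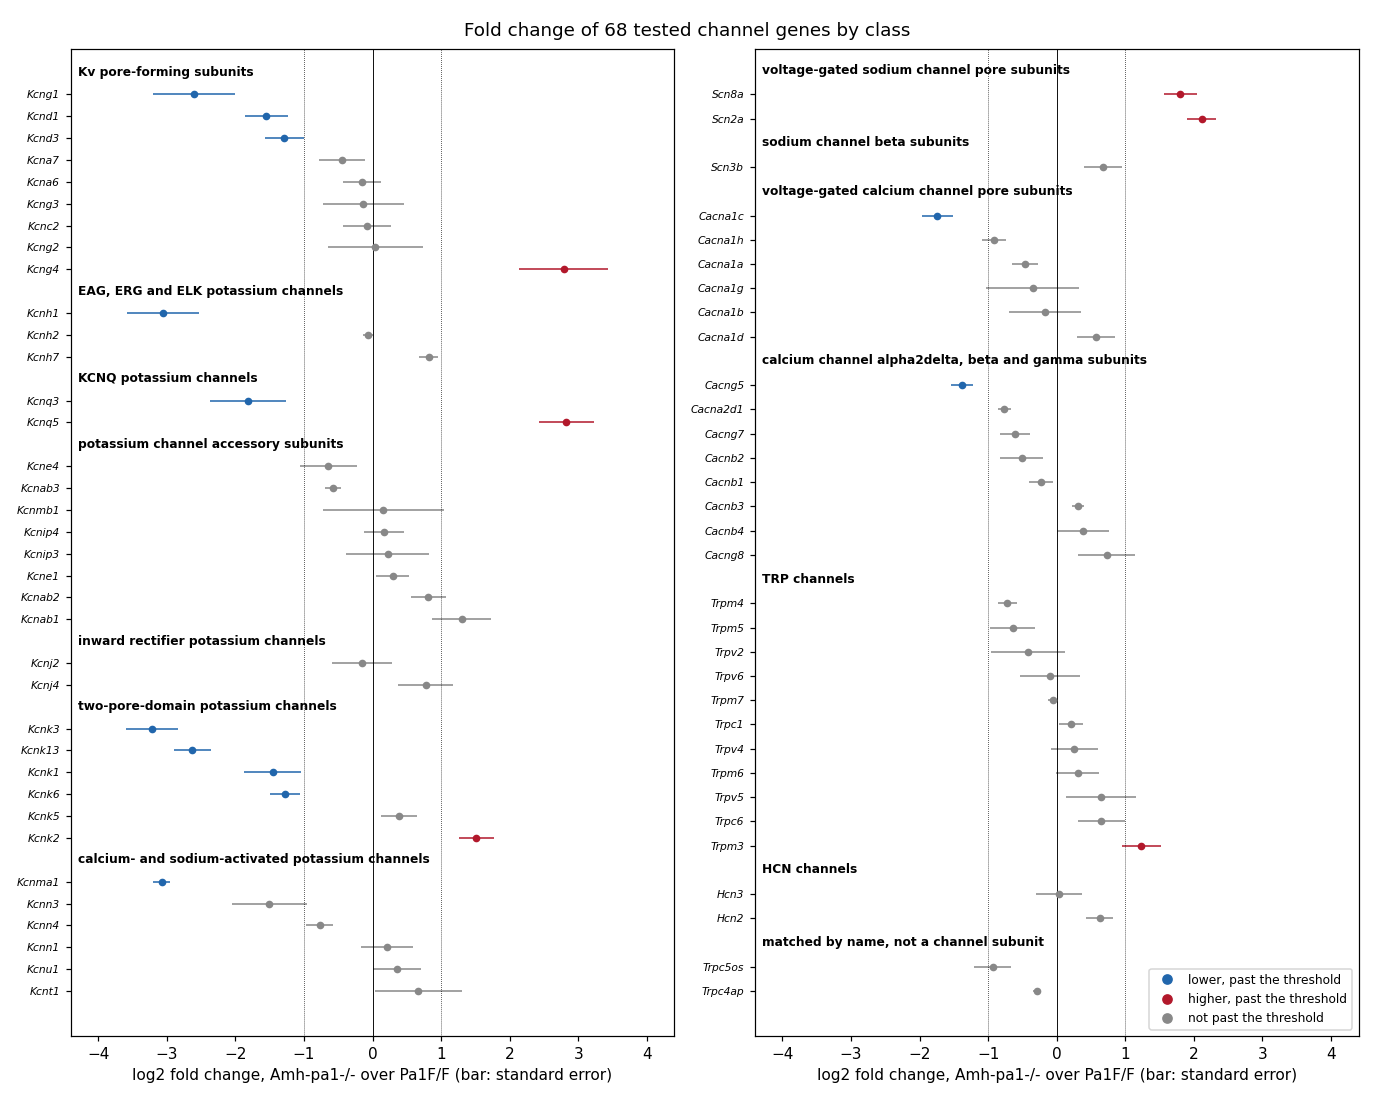
Log2 fold change of 68 of the 74 tested channel genes in Amh-pa1-/- over Pa1F/F Sertoli cells, in 14 classes, with bars for the standard error (3 libraries per genotype). Blue points are 12 genes lower and red points 6 genes higher at an adjusted p-value under 0.05 and at least 2-fold, the dotted lines mark 2-fold, and the points run from -3.21 for Kcnk3 to 2.82 for Kcnq5.

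Two-pore-domain potassium channels, the background or leak channels that hold the resting potential, had 5 of 6 tested members past the threshold, as compared with 12.0% of all tested genes, 4 of them lower and 1 higher. With the close pairs summed, Kcnk13 and Kcnk3 were still past it and Kcnk1, Kcnk2 and Kcnk6 were not. Kcnk13 (chr12:99964499-100062682, plus strand, GRCm38), a halothane-inhibited leak channel, had 751, 617 and 732 normalized counts in Pa1F/F replicates 1, 2 and 3 and 81.0, 91.3 and 166 in the Amh-pa1-/- replicates. Normalized counts are scaled to the mean effective library size of the 6 libraries, and Kcnk13 was the most counted gene of the class. The genotypes were far apart, with Amh-pa1-/- replicate 3 the highest of its group, and the log2 fold change of Kcnk13 was -2.63 ± 0.27 (SE, n = 3 per genotype, adjusted p = 0.000818). Kcnk3 (chr5:30588170-30625271, plus strand), an acid-sensitive leak channel, had 51.7, 42.6 and 62.9 normalized counts as compared with 2.93, 9.01 and 5.01, a log2 fold change of -3.21 ± 0.38 (adjusted p = 0.00138). All 3 Amh-pa1-/- libraries were thus well under the lowest control library. For Kcnk6 (chr7:29221926-29232515, minus strand), a weakly conducting relative of Kcnk1, 287, 162 and 236 normalized counts stood against 94.7, 84.5 and 103, and the log2 fold change was -1.28 ± 0.22 (adjusted p = 0.00562).

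Kcnk1 (chr8:125995170-126030685, plus strand), the founding member of the two-pore family, had 200, 151 and 239 normalized counts in Pa1F/F and 59.5, 34.9 and 119 in Amh-pa1-/- libraries. The groups did not overlap, but the Amh-pa1-/- libraries differed by more than 3-fold among themselves, and the log2 fold change was -1.46 ± 0.42 (adjusted p = 0.0339). Its call was lost without Pa1F/F replicate 1 (adjusted p = 0.0919) or 3 (0.106) and without Amh-pa1-/- replicate 1 (0.105) or 2 (0.0643), and without Amh-pa1-/- replicate 3 the log2 fold change was -2.04. Kcnk2 (chr1:189207930-189402273, minus strand), a leak channel opened by stretch, heat and fatty acids, went the other way. It had 54.4, 40.7 and 57.7 normalized counts in Pa1F/F and 172, 164 and 100 in Amh-pa1-/- cells, a log2 fold change of 1.51 ± 0.26 (adjusted p = 0.00499). Kcnk5, the remaining tested member, had means of 28.8 ± 8.19 and 37.5 ± 2.19 normalized counts (SD, n = 3) and did not pass the test (adjusted p = 0.298).

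Summed per kilobase of exon, the two-pore-domain channels stood at 22.3, 16.4 and 22.3 CPM per kilobase in the Pa1F/F libraries and at 7.43, 6.79 and 9.53 in the Amh-pa1-/- libraries. Other classes had the opposite order, since the sum in each Amh-pa1-/- library was above that in any Pa1F/F library for KCNQ channels (1.53 to 1.68 as compared with 0.462 to 0.958 CPM per kilobase), HCN channels (1.28 to 1.47 as compared with 0.812 to 1.10) and sodium channel pore subunits (0.855 to 1.01 as compared with 0.351 to 0.615). Within the two-pore-domain sum, Kcnk13 held 46.1%, 51.5% and 44.9% in Pa1F/F replicates 1, 2 and 3, and 14.9%, 18.4% and 23.9% in the Amh-pa1-/- replicates. The share of Kcnk2 was 3.31%, 3.36% and 3.51% in the control libraries and 31.4%, 32.9% and 14.3% in the Amh-pa1-/- libraries. Kcnk2 thus went from a minor member in each control library to the member with the largest share in Amh-pa1-/- replicates 1 and 2, while Kcnk1 held the largest share, 33.6%, in replicate 3.

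**Figure D2:**
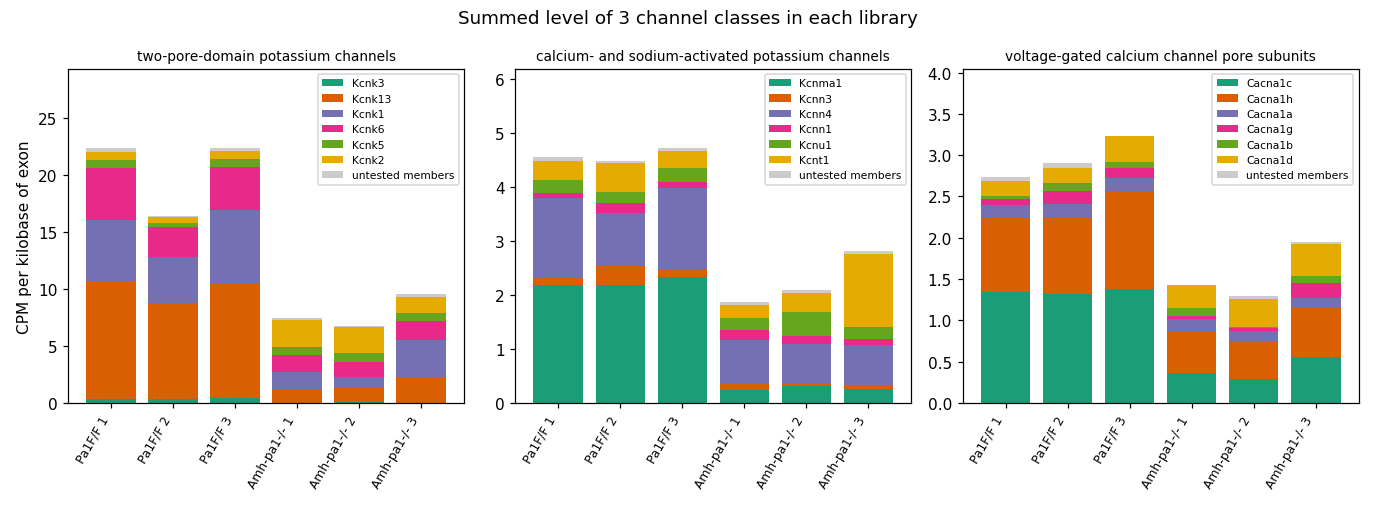
Summed level per kilobase of exon, in CPM per kilobase, in each of the 6 libraries for two-pore-domain potassium channels, calcium- and sodium-activated potassium channels and voltage-gated calcium channel pore subunits, with 1 colour per tested gene and grey for untested members (each panel has its own axis from 0). These classes were chosen after their values were seen and have sums that are lower in each Amh-pa1-/- library than in any Pa1F/F library, and the parts of Kcnk13, Kcnma1 and Cacna1c shrink.

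Among the voltage-gated potassium channels of the Kv type, which open on depolarization, 11 of 23 members were tested, 4 were lower and 2 were higher, as compared with 6.56% and 5.44% of all tested genes. Kcnd3 (chr3:105452330-105674002, plus strand) and Kcnd1 (chrX:7822289-7838280, plus strand) encode pore subunits of the fast transient A-type current. Kcnd3 had 308, 213 and 295 normalized counts in Pa1F/F and 81.0, 90.1 and 163 in Amh-pa1-/- cells, and its log2 fold change was -1.28 ± 0.29 (adjusted p = 0.0147). The call of Kcnd3 was lost without Pa1F/F replicate 1 (adjusted p = 0.0573) or 3 (0.0532) and without Amh-pa1-/- replicate 2 (0.0542). Kcnd1 was lower in all 3 Amh-pa1-/- libraries, with 23.6, 16.5 and 24.1 as compared with 5.86, 6.76 and 9.02 normalized counts and a log2 fold change of -1.55 ± 0.31 (adjusted p = 0.00987). The third gene of this subfamily, Kcnd2, did not pass the filter, with counts of 25, 8 and 28 in Pa1F/F and 0, 1 and 2 in Amh-pa1-/- libraries. It was chosen for mention after its values were seen.

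The genes Kcng1 and Kcng4 encode silent subunits, which form no channel alone and modify other Kv channels, and they changed in opposite directions. Kcng1 (chr2:168260117-168281736, minus strand) had 51.7, 30.02 and 44.0 normalized counts as compared with 4.88, 1.13 and 14.0, a log2 fold change of -2.60 ± 0.60 (adjusted p = 0.0158). The adjusted p-value of Kcng1 was 0.0605 without Pa1F/F replicate 1, 0.0534 without Pa1F/F replicate 3 and 0.0621 without Amh-pa1-/- replicate 1, and its log2 fold change was -3.69 without Amh-pa1-/- replicate 3. Kcng4 (chr8:119623854-119635680, minus strand) was near the floor in control cells, with 2.72, 8.71 and 1.05 normalized counts, and had 15.6, 31.5 and 42.1 in Amh-pa1-/- cells. Its log2 fold change was 2.79 ± 0.65 (adjusted p = 0.0167), with an adjusted p-value of 0.0695 without Pa1F/F replicate 1 and 0.0542 without Pa1F/F replicate 3, and a log2 fold change of 3.85 without Pa1F/F replicate 2.

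Kcna6, the most counted Kv gene, had 728, 639 and 657 normalized counts in Pa1F/F cells. In Amh-pa1-/- cells it had 445 and 461 in replicates 1 and 2 but 911 in replicate 3, so that the genotypes overlapped (log2 fold change -0.15 ± 0.27, adjusted p = 0.694). Without Amh-pa1-/- replicate 3, which leaves the close pair, the log2 fold change of Kcna6 was -0.57 (adjusted p = 0.00175). Without replicate 1 it was 0.03 (adjusted p = 0.952).

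Kcnh1 (chr1:192190774-192510159, plus strand), a slowly activating EAG channel, had 29.9, 34.9 and 23.1 normalized counts in Pa1F/F and 1.95, 1.13 and 7.01 in Amh-pa1-/- cells. Each Amh-pa1-/- library was below every control library (log2 fold change -3.05 ± 0.52, adjusted p = 0.00509), and the log2 fold change was -4.12 without Amh-pa1-/- replicate 3. Kcnh2, from the same EAG, ERG and ELK class, held more than 93% of the summed level per kilobase of the class in each library and had 820, 869 and 760 as compared with 796, 748 and 792 normalized counts (adjusted p = 0.498). The genotypes overlapped for Kcnh2, with a log2 fold change of -0.07 ± 0.07.

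KCNQ channels carry the non-inactivating M current, which sits near the resting potential. Kcnq5 (chr1:21398403-21961942, minus strand) had 12.7, 13.6 and 6.29 normalized counts in Pa1F/F and 54.7, 66.5 and 113 in Amh-pa1-/- cells, a log2 fold change of 2.82 ± 0.40 (adjusted p = 0.00265). Every Amh-pa1-/- library had at least 4 times the counts of the highest control library. In contrast, Kcnq3 (chr15:65986387-66286224, minus strand), which forms heteromers with other KCNQ subunits, had 20.8, 29.0 and 15.7 as compared with 3.90, 2.25 and 12.0 normalized counts (log2 fold change -1.81 ± 0.55, adjusted p = 0.0421). The 3 Amh-pa1-/- values of Kcnq3 were below the control values, with replicate 3 close to them. Leaving out any replicate other than Amh-pa1-/- replicate 3 raised its adjusted p-value to between 0.0693 and 0.128, and without that replicate its log2 fold change was -2.76.

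Kcnma1 (chr14:23289431-24014491, minus strand), the pore of the large-conductance BK channel, which opens on calcium and depolarization, had 545, 544 and 582 normalized counts in Pa1F/F and 58.6, 76.6 and 63.1 in Amh-pa1-/- cells. The spread within each genotype was small, and Kcnma1 had the lowest adjusted p-value of the channel genes (log2 fold change -3.08 ± 0.12, adjusted p = 5.0e-05). It held between 47.9% and 49.4% of the summed level per kilobase of the calcium- and sodium-activated potassium channels in Pa1F/F libraries and between 9.0% and 14.7% in Amh-pa1-/- libraries. None of the 8 tested accessory subunits of potassium channels passed the 2-fold threshold. Kcnab3, a cytoplasmic beta subunit of Kv channels and the most counted of them, had 536, 404 and 474 as compared with 317, 319 and 314 normalized counts, with no overlap, a log2 fold change of -0.57 ± 0.12 and an adjusted p-value of 0.00952. Of 13 inward rectifiers, which pass potassium into the cell more easily than out of it, 2 were tested and neither passed the test. Kcnj2, the strong rectifier of heart and muscle, had 33.5, 43.6 and 28.3 normalized counts in Pa1F/F and 16.6, 24.8 and 53.1 in Amh-pa1-/- cells (adjusted p = 0.805), with the highest and the lowest values both in Amh-pa1-/- cells.

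Scn2a (chr2:65620771-65767447, plus strand) and Scn8a (chr15:100869858-101045938, plus strand) encode pore subunits of voltage-gated sodium channels and are known from central neurons. Scn2a rose from 21.7, 19.4 and 25.2 to 113, 94.6 and 80.2 normalized counts (log2 fold change 2.12 ± 0.21, adjusted p = 0.000755). For Scn8a, 17.2, 17.4 and 20.98 stood against 52.7, 60.8 and 81.2 normalized counts (log2 fold change 1.80 ± 0.24, adjusted p = 0.00215). For both genes the lowest Amh-pa1-/- library was above 2 times the highest control library. Per kilobase of exon both remained low, at 0.419 to 0.591 CPM per kilobase for Scn2a and 0.227 to 0.349 for Scn8a in Amh-pa1-/- libraries. Among 5 tested neuronal or glial markers, the neuronal gene Syt1 was higher, with 0.968 to 3.62 normalized counts in Pa1F/F cells as compared with 10.7 to 16.9 in Amh-pa1-/- cells (adjusted p = 0.00666), and the glial gene S100b was lower, with means of 66.4 and 31.9 (adjusted p = 0.00841), and their part in the sodium channel counts was not tested. Scn3b, a beta subunit of sodium channels, which are cell adhesion proteins that modulate the pore, had 213, 141 and 231 normalized counts in Pa1F/F and 357, 374 and 201 in Amh-pa1-/- cells. It overlapped between the genotypes through Amh-pa1-/- replicate 3 (log2 fold change 0.67 ± 0.28, adjusted p = 0.105).

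Cacna1c (chr6:118587240-119196418, minus strand), the pore of the cardiac and smooth muscle L-type calcium channel, was the most counted calcium channel pore gene. It had 440, 434 and 454 normalized counts in Pa1F/F and 119, 93.5 and 183 in Amh-pa1-/- cells, with no overlap and the highest Amh-pa1-/- value in replicate 3. The log2 fold change of Cacna1c was -1.74 ± 0.23 (adjusted p = 0.00203). Of the other 5 tested pore genes, 1 was lower at an adjusted p-value under 0.05 with less than 2-fold change and none was higher. The class summed to 2.74, 2.90 and 3.24 CPM per kilobase in Pa1F/F and to 1.43, 1.29 and 1.95 in Amh-pa1-/- libraries, and Cacna1c held between 42.7% and 48.9% of it in the former and between 22.0% and 28.6% in the latter.

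Cacna2d1, the extracellular alpha2delta subunit that brings calcium channels to the membrane, had 2254, 2125 and 2326 normalized counts in Pa1F/F and 1423, 1383 and 1134 in Amh-pa1-/- cells. It fell by less than 2-fold (log2 fold change -0.77 ± 0.09, adjusted p = 0.00155). Cacng5 (chr11:107874605-107915055, minus strand), a transmembrane gamma subunit that is also known as a partner of AMPA receptors, had 93.3, 85.2 and 101 normalized counts as compared with 37.1, 37.2 and 33.1. The 3 Amh-pa1-/- values were close together, and the log2 fold change of Cacng5 was -1.38 ± 0.16 (adjusted p = 0.00130). Taking the 8 tested auxiliary subunits as a class, 1 was lower at 2-fold and none was higher, and the summed level was 22.7 to 23.4 CPM per kilobase in Pa1F/F and 19.9 to 23.1 in Amh-pa1-/- libraries.

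Of 12 tested TRP channels, which sense temperature, lipids, stretch and store depletion, 1 (8.33%) passed the threshold, as compared with 12.0% of all tested genes. Trpm3 (chr19:22139119-22989884, plus strand), a channel opened by heat and by pregnenolone sulphate, had 28.1, 33.9 and 56.6 normalized counts in Pa1F/F and 82.0, 91.3 and 105 in Amh-pa1-/- cells (log2 fold change 1.24 ± 0.28, adjusted p = 0.0151). Without Pa1F/F replicate 1 its adjusted p-value was 0.0518. Trpm7 had 3092, 2905 and 3285 normalized counts as compared with 2948, 3104 and 2854, and the genotypes overlapped (log2 fold change -0.06 ± 0.06, adjusted p = 0.507). It made up between 72.8% and 77.2% of the TRP class per kilobase in each of the 6 libraries, and the sum of that class was 23.8 to 26.2 CPM per kilobase in Pa1F/F and 23.0 to 24.0 in Amh-pa1-/- cells. Hcn2, a pacemaker channel opened by hyperpolarization and cyclic AMP, had 49.8, 34.9 and 42.0 as compared with 64.4, 62.0 and 69.1 normalized counts. The log2 fold change of Hcn2 was 0.62 ± 0.19 with an adjusted p-value of 0.0437, which rose to between 0.0543 and 0.118 when 1 replicate was left out.

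**Figure D3:**
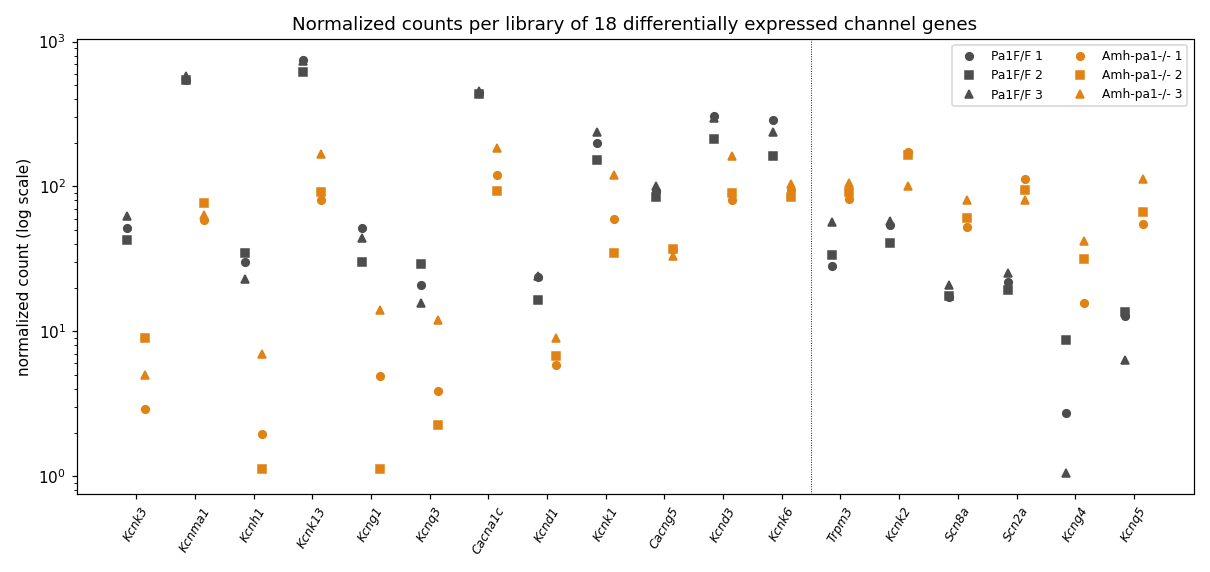
Normalized counts on a log axis in each library for 12 channel genes lower (left of the dotted line) and 6 higher (right) in Amh-pa1-/- (orange) than in Pa1F/F (grey) Sertoli cells, with circles, squares and triangles for replicates 1, 2 and 3. The genes were chosen by the test on these same libraries, and that the 2 colours overlap in none of them follows largely from this choice. The triangle of Amh-pa1-/- replicate 3 is the orange point nearest to the controls for genes such as Kcnk13 (166), Kcnk1 (119), Kcng1 (14.0) and Kcnq3 (12.0).

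The study also examined the AP-1 factor JUN, and the letters of the AP-1 motif were looked for in the 250 bases upstream of annotated transcription starts (RefSeq, GRCm38.p6). The motif TGANTCA reads the same on both strands, so that 1 search covers both, and overlaps no other motif searched. It was found in 7.82% of the 27025 genes of the promoter table, in 5.71% of the tested genes with a promoter there, and in 4 of the 52 tested channel genes with one (7.69%). Among the genes past the 2-fold threshold, 1 of 7 lower genes with a promoter (Cacng5) and 1 of 6 higher genes with a promoter (Kcnk2) held it. The windows are shown because they are the only matches among these genes. The Kcnk2 window lies at chr1:189344282-189344348 and the Cacng5 window at chr11:107915233-107915299, both on the minus strand, and the capitals mark the motif, which begins 126 bases before an annotated alternative start inside the Kcnk2 gene and 214 bases before an annotated start of Cacng5. The matches are descriptions of letters and not binding sites.
Kcnk2: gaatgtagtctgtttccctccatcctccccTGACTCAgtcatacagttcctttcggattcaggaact
Cacng5: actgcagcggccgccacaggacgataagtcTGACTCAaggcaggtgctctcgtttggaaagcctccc

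Amh-pa1-/- replicate 3 stood apart from replicates 1 and 2 in many channel genes. It was at least 2-fold above their mean in 16 of the 74 tested channel genes (21.6%), as compared with 4.65% of all tested genes, and at least 2-fold below it in 3 (4.05%), as compared with 4.21%. Kcnmb1, the BK channel beta subunit of smooth muscle, had 9.76, 7.89 and 97.2 normalized counts in Amh-pa1-/- replicates 1, 2 and 3 and 29.9, 31.95 and 42.0 in the Pa1F/F replicates. Replicates 1 and 2 were thus below and replicate 3 above every control library. Kcnt1, a sodium-activated potassium channel, had 39.0, 57.5 and 218 as compared with 58.9, 88.1 and 51.4. For Cacna1g, a T-type calcium channel, the Amh-pa1-/- values were 6.83, 4.51 and 28.1 and the Pa1F/F values 9.97, 23.2 and 17.8. Trpv2, a TRP channel found in macrophages and in muscle, had 18.5, 11.3 and 55.1 in Amh-pa1-/- and 39.0, 43.6 and 31.5 in Pa1F/F cells. These genes were chosen after their values were seen.

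In the opposite direction, Kcnab1, a Kv beta subunit, had 95.7, 108 and 35.1 normalized counts in the Amh-pa1-/- replicates and 39.0, 25.2 and 32.5 in the Pa1F/F replicates (log2 fold change 1.30 ± 0.43, adjusted p = 0.0545). Trpm6, a magnesium channel of kidney and gut epithelium, had 179, 210 and 87.2 as compared with 108, 140 and 136. Without Amh-pa1-/- replicate 3, which leaves the close pair, further channel genes were lower, among them Cacna1g, Cacna1h, Kcnd2, Kcng2, Kcnmb1, Trpv2 and Trpv3, and Kcnab1 was higher. Of the 8 listed myoid cell markers, Myh11, Actg2, Des and Cnn1, chosen after their values were seen, were high in the same library, and none of these 4 passed the test. Myh11 had 216, 164 and 1605 normalized counts in Amh-pa1-/- replicates 1, 2 and 3 and 481 to 649 in Pa1F/F cells, and Actg2, Des and Cnn1 had 730, 485 and 421 in replicate 3 and at most 66.4 in the other 2 Amh-pa1-/- replicates. The 2 myoid cell markers past the threshold had another pattern, since Acta2 had 2537 to 3239 normalized counts in Pa1F/F cells and 12312, 11886 and 15383 in Amh-pa1-/- replicates 1, 2 and 3, and Myl9 had 2390 to 3498 as compared with 11585, 11209 and 9870. Amh, the Sertoli cell hormone, had 43.9, 48.4 and 365 in the Amh-pa1-/- replicates and 186, 254 and 179 in the Pa1F/F replicates, so that replicates 1 and 2 were below and replicate 3 above every control library (adjusted p = 0.698). The part that any of these values had in the channel counts was not tested.

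**Figure D4:**
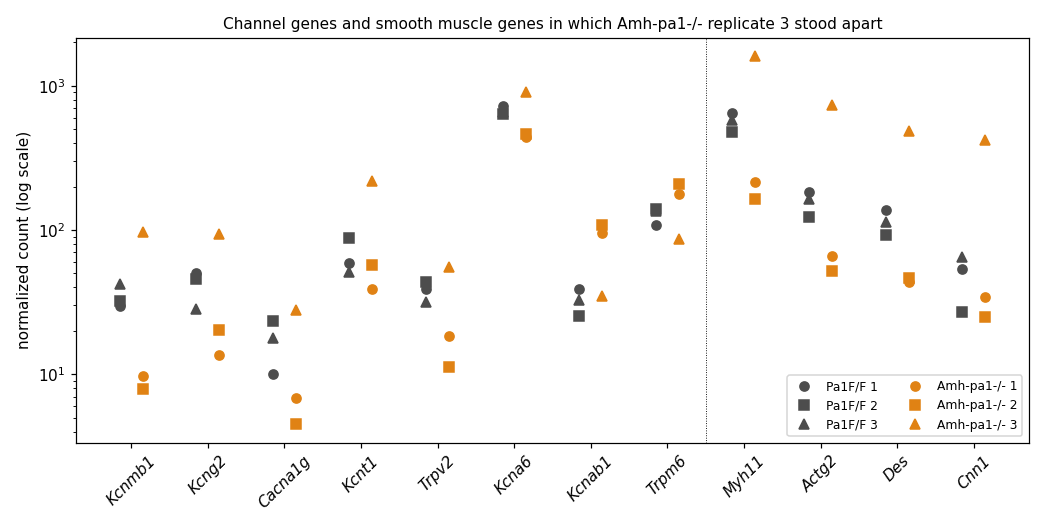
Normalized counts on a log axis in each library for 8 channel genes and, right of the dotted line, 4 of the 8 myoid cell markers, chosen after their values were seen, with grey for Pa1F/F, orange for Amh-pa1-/- and circles, squares and triangles for replicates 1, 2 and 3. The orange triangle lies far above the orange circle and square for Kcnmb1 (97.2 against 9.76 and 7.89) and Myh11 (1605 against 216 and 164), and below them for Kcnab1 and Trpm6.

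Channels work with pumps, exchangers and other partners that the name pattern does not hold. Of 107 such ion transport genes listed, 103 were in the table and 76 were tested. At the 2-fold threshold 11 were lower (14.5%, as compared with 6.56% of all tested genes) and 2 were higher (2.63%, as compared with 5.44%), which together were 17.1% against 12.0%, and the median log2 fold change of the list was -0.15. With the close pairs summed 6 were lower, and of the genes named here Atp1b2, Asic2 and Unc79 missed the threshold (adjusted p = 0.0584, 0.0622 and 0.0598). A test against 2-fold left 4 lower, and Atp2a3 missed the threshold there too. The 2 higher genes were past it in both settings. Atp1b2, a beta subunit of the sodium-potassium pump, had 7075, 7927 and 6891 normalized counts in Pa1F/F and 1779, 2038 and 3457 in Amh-pa1-/- cells (log2 fold change -1.59 ± 0.24, adjusted p = 0.00340). The pump's regulator Fxyd1 was lower too, with 130, 91.0 and 102 as compared with 23.4, 20.3 and 34.1 normalized counts and a log2 fold change of -2.04 ± 0.25 (adjusted p = 0.00162). For both genes the highest Amh-pa1-/- library was below the lowest control library.

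Partners of the channels themselves were also among the genes that changed. Dpp6, which speeds the A-type channels that Kcnd genes encode, rose from 55.3, 49.4 and 57.7 to 334, 356 and 159 normalized counts (log2 fold change 2.38 ± 0.32, adjusted p = 0.00208), while Kcnd1 and Kcnd3 fell. Fgf13, an intracellular factor that binds sodium channels, had 246, 226 and 279 as compared with 64.4, 64.2 and 89.2 normalized counts (log2 fold change -1.78 ± 0.17, adjusted p = 0.000657). Sntb1, a syntrophin that anchors membrane proteins to the dystrophin complex, had 501, 427 and 458 as compared with 67.4, 65.3 and 65.1 (log2 fold change -2.81 ± 0.10, adjusted p = 4.3e-05). Slc8a2, a sodium-calcium exchanger, rose from near the floor, with 9.97, 8.71 and 7.34, to 82.0, 67.6 and 120 normalized counts (log2 fold change 3.35 ± 0.31, adjusted p = 0.000554). The acid-sensing channel Asic2 (log2 fold change -1.68 ± 0.28), the calcium pump Atp2a3 (-1.38 ± 0.21) and Unc79, a partner of the sodium leak channel (-1.15 ± 0.20), were lower.

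The 68 channel genes that were not tested held 0.897% of the channel counts. In 40 of them no library had more than 3 counts, and 9 had more than 10 counts in some library, with 28 counts for Kcnd2 as the highest. They included 11 of 13 inward rectifiers, 12 of 23 Kv pore genes and 6 of 9 sodium channel pore genes, so that a difference in these genes was not detectable at this depth with the filter used. Without the filter, Kcnd2 and Trpv3 were lower and Kcnab1 was higher beside the 21 genes above. Trpv3, a heat-sensitive TRP channel of skin, had counts of 9, 16 and 10 in Pa1F/F and 3, 3 and 1 in Amh-pa1-/- libraries, and was chosen after its values were seen.

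Of the 142 channel genes, 47 overlap another gene of the table, 10 of the 21 changed genes among them, and whether the counting used the strand is not stated. For the most counted partners of the changed genes, the levels were close in both genotypes. Dcp1b, on the strand opposite to Cacna1c, had means of 165 and 168 normalized counts in Pa1F/F and Amh-pa1-/- cells, and Hhat, opposite to Kcnh1, had 127 and 141. The pseudogenes Pdcd5-ps within Kcnk2 and Gm7658 within Kcnq5 had 169 and 197, and 25.6 and 30.4. The other partners of changed genes had at most 6.40 normalized counts on average in either genotype.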

How the data were processed

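RNA-seq counts of 6 libraries, 3 Pa1F/F and 3 Amh-pa1-/-, were grouped by their labels. Per the labels, HISAT2 2.1.0 (GRCm38) and HTSeq 0.6.0 were used by the authors, and the raw counts per gene were deposited. The strand setting is not given in the sources used here. The table's columns with the authors' own comparison (means, fold changes, p-values) were not used. Counts were filtered with filterByExpr by group (minimum count 10, minimum total 15), normalized with TMM and tested with edgeR 4.0.16 (quasi-likelihood, genotype only, R 4.3.3) across all genes. Alternatives used DESeq2 1.42.0 and limma 3.58.1. Levels per kilobase used the union of annotated exons of each gene from another mouse annotation, matched by gene identifier for all 142 channel genes. Intervals of counting were not computed, and the floor of 3 counts covers counting error only. The steps were tested on simulated data. The channel genes and all gene lists were chosen with earlier results of these data known. Named are all channel genes past the adjusted p-value of 0.05 and 2-fold and the most counted tested gene of each class, and some of them are not reported here. Replicate numbers were not used to pair the samples in the main test.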

Additional observations from a re-analysis of the deposited data

How the results depend on the processing

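The counts of 14 lower and 7 higher channel genes were 14 and 7 with DESeq2 size factors, with library size only and with limma-voom, and 16 and 8 with DESeq2's Wald test or no filter. With at least 10 counts in every library, 8 and 5 of 52 tested genes passed, and 1 companion gene was higher instead of 2. In that setting 8 of the 21 genes lost their call because they were not tested. With the close pairs summed, 5 were lower and 4 higher, or 7 and 4 without a fold limit instead of 22 and 11, 6 companion genes were lower instead of 11, and the log2 fold change of Kcna6 was 0.0446. A test against 2-fold (edgeR's glmTreat) left 5 lower and 3 higher channel genes (10.8% of those tested, as compared with 3.61% of all genes) and 4 lower companion genes. With the replicate number as a block (replicate block), 13 were lower and 7 higher, or 20 and 8 without a fold limit, and Kcnq3 was lost (adjusted p = 0.100). The correlations of same-numbered replicates were 0.108, -0.164 and -0.179, and those of replicates with different numbers lay between -0.173 and 0.214. A pairing by number was thus not seen, but these values cannot exclude a shared preparation. With 1 replicate left out, the lower genes ranged from 10 to 23, the higher genes without a fold limit from 6 to 13, and the median log2 fold change from -0.56 to 0.00270, and the log2 fold changes of Kcna6 and Kcnj2, neither past the threshold, from -0.572 to 0.0287 and from -0.771 to 0.157. The causes were not tested. Values of the named genes were also compared over the alternatives, leaving out the test against 2-fold and genes not tested in a setting. Of these, 369 kept their direction and side of the threshold, 35 lost the threshold, 2 passed it newly and 6 changed direction. The 13 calls lost in the test against 2-fold and the 8 lost with at least 10 counts in every library are not among the 35. The number of libraries and the low counts of most channel genes limit the precision.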
